A study of Homo sapiens with 2 samples.

Results

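The TGF-beta and BMP pathway was examined in U87, an established line of human glioblastoma cells, as 45 genes that encode its ligands, receptors, SMAD proteins, target genes and antagonists. They were chosen by name, with earlier results of these data known. All 45 were found among the 41582 genes to which the transcripts of the table were assigned. The cells, of genotype WT by their label, were grown in RPMI medium with fetal bovine serum. They were kept for 72 h with either CCA-1.1, which is an analog of curcumin, or the solvent DMSO as the control. Messenger RNA was enriched from 1 sample per condition and sequenced, so there were 2 libraries, and no difference given here has a replicate error or a p-value. The concentration of CCA-1.1 in the sequenced culture is not given in the sources used here.

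In this pathway, dimeric ligands are secreted and bring type I and type II receptor kinases together at the cell surface. The type I receptor then phosphorylates SMAD proteins: SMAD2 and SMAD3 for TGF-beta and activin, and SMAD1, SMAD5 and SMAD9 for the BMPs. These join SMAD4 and enter the nucleus, where they regulate transcription. TGF-beta is secreted in a latent complex with LTBP proteins and has to be released from it before it can signal. BMPs are held back outside the cell by antagonists such as gremlin and noggin. In glioblastoma, TGF-beta, TGF-beta 2 above all, is known for its immunosuppressive and pro-invasive roles, and BMPs are known to push glioma stem cells towards differentiation. Serum itself carries ligands of this pathway.

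The levels below are gene-level TPM, the sum over all transcripts of a gene. TPM corrects for transcript length, so levels can be compared between genes, but it does not keep the read depth, and no counting interval can be given. A difference is the log2 ratio of CCA-1.1 to DMSO after 1 TPM was added to each value, which understates changes at low levels. The labelled cell type was checked with marker genes. Vimentin (VIM) was at 3216.8 TPM with DMSO and 3106.33 TPM with CCA-1.1, and CD44 at 607.39 and 472.58 TPM. The astrocyte marker GFAP was below 1 TPM in both libraries, and S100B was listed at 0 in both. OLIG2 was at 5.64 and 7.03 TPM and SOX2 at 1.87 and 1.45 TPM. CDKN2A, a gene known to be deleted in U87 cells, was listed at 0 in both libraries. Among 4 immune markers, AIF1 was listed at 0 in both libraries, PTPRC was below 0.1 TPM and CSF1R was at 1.23 and 1.62 TPM, while CD68, which is also a lysosomal gene, was at 494.21 and 397.09 TPM. The summed level of 4 markers each was 251.1 and 224.4 TPM for neurons, mostly TUBB3, 1.32 and 2.15 TPM for oligodendrocytes, 4.63 and 3.90 TPM for endothelium and 22.7 and 25.4 TPM for epithelium. The part of these markers in the differences below was not tested. In bulk RNA, fewer cells that express a gene and less RNA of it per cell cannot be told apart.

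The study used a 2-fold criterion together with a p-value and listed single transcripts. Here the fold alone was applied to gene sums, and no pathway gene passed it. Among all 15485 genes averaging at least 1 TPM over both libraries, 1.89% were higher and 1.67% were lower with CCA-1.1 by that margin, and among the protein-coding ones 0.149% and 0.191%. Of the 45 pathway genes, 38 had a mean of at least 1 TPM. A smaller margin was also used, a difference beyond 0.32 in either direction, which stands for 25% more or 20% less. By it, 10 of these 38 genes were lower with CCA-1.1 and 1 was higher. Of all genes averaging at least 1 TPM, 6.88% were lower and 11.5% were higher beyond 0.32. With protein-coding genes alone as the background, a comparison added after the data were seen, these shares were 4.53% and 6.84%. The median difference of the 38 genes was -0.12, against 0.03 for all genes, and 26 of the 38 were lower, against 43.8% of all genes. The genes that were lower beyond 0.32 were GREM1, LTBP3, LTBP1, TGFBR1, ID1, ID3, TGFBI, ENG, TGFBR3 and BMPR1A, and the one that was higher was SMAD2.

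GREM1 and the target genes ID1 and ID3 were among the genes with the largest gaps. To show the DNA next to them, the stretch from 250 to 51 bases before the annotated start of each is printed 5′ to 3′ on the strand of the gene, from RefSeq, GRCh38.p14. Capitals mark matches, on either strand, to the motifs CAGAC (the core of the SMAD-binding element), GGCGCC and GCCGNCGC (GC-rich SMAD motifs), which may overlap.
ID1, chr20:31605039-31605238, plus strand: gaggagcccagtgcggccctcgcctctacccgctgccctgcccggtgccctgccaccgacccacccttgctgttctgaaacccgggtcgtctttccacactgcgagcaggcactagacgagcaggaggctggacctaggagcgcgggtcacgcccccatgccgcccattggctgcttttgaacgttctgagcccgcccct
ID3, chr1:23559552-23559751, minus strand: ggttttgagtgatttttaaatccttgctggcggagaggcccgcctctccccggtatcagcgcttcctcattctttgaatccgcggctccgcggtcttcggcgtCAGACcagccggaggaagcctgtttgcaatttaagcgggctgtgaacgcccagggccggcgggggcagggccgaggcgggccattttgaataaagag
GREM1, chr15:32717754-32717953, plus strand: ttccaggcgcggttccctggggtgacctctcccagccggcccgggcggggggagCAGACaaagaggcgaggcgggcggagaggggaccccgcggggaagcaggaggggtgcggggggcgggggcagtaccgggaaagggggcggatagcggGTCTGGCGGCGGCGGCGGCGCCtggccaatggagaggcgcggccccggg

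The ID1 stretch held none of the 3 motifs, the ID3 stretch held 1 match and the GREM1 stretch held 6, of which the 4 GC-rich ones overlap in a chain. CAGAC or its reverse complement was present in 32.4% of 27305 promoter stretches of this length, GGCGCC in 12.3% and GCCGNCGC in 9.21%. Among the 42 pathway genes with such a stretch, the numbers were 15 (35.7%), 13 (31%) and 10 (23.8%). Base composition was not taken into account, and its part in these shares was not tested. BMP2, NOG and SKI were not matched. These matches are letters in a short window, and SMAD sites of a gene can lie far outside it.

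The TGF-beta ligands were expressed at different levels. TGFB2, the isoform first described in glioblastoma as an immunosuppressive factor, was at 148.08 TPM with DMSO and 124.79 TPM with CCA-1.1. TGFB1 was at 88.96 and 84.44 TPM, and TGFB3 at 2.77 and 2.41 TPM. All were lower with CCA-1.1, by differences of -0.25, -0.07 and -0.14, and none of them passed 0.32. TGFB2 made up 61.7% of the TPM of the 3 isoforms in DMSO and 59.0% in CCA-1.1. The activin subunit genes INHBA (0.33 and 0.22 TPM) and INHBB (listed at 0 with DMSO and 0.02 TPM with CCA-1.1) were at the bottom of the table. Of the BMP ligands, BMP2 was at 22.22 and 23.17 TPM and BMP6 at 10.5 and 8.78 TPM, whereas BMP4 was at 0.13 and 0.04 TPM. BMP2 differed by 0.06 and BMP6 by -0.23.

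The latent TGF-beta binding proteins, a family with members that tether the latent ligand to the extracellular matrix, were all lower with CCA-1.1. LTBP3 (chromosome 11, 65538559 to 65558359) was at 104.87 TPM with DMSO and 68.92 TPM with CCA-1.1, a difference of -0.60. LTBP1 (chromosome 2, 32946953 to 33399509) was at 70.91 and 47.45 TPM, a difference of -0.57. Their TPM was thus 34.3% and 33.1% lower. LTBP4, which had the highest level of the family, was at 128.38 and 121.15 TPM, a difference of -0.08. LTBP2 was at 2.21 and 1.66 TPM, a difference of -0.27. The ratio of LTBP3 to LTBP4 was 0.82 with DMSO and 0.57 with CCA-1.1, and that of LTBP1 to LTBP4 was 0.55 and 0.39. Among genes with a mean between 20 and 100 TPM, 1.11% had a lower difference than LTBP3 and 1.24% a lower one than LTBP1.

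Of the type I receptors, TGFBR1, the signalling receptor of TGF-beta, showed the largest gap. It was at 57.31 TPM with DMSO and 38.88 TPM with CCA-1.1, a difference of -0.55 (chromosome 9, 99103647 to 99154192). ACVR1, a BMP and activin type I receptor with a similar level, was at 59.57 and 57.42 TPM, a difference of -0.05. BMPR1A, which binds BMP2 and BMP4, was at 9.05 and 7.03 TPM, a difference of -0.32 that lies just beyond the margin. ACVR1B, the activin type I receptor, was at 5.61 and 5.54 TPM, and BMPR1B was at 0.44 and 0.36 TPM. Of the type II receptors, none passed 0.32. TGFBR2, which binds TGF-beta and recruits TGFBR1, was at 31.06 and 25.53 TPM, a difference of -0.27, and the BMP receptor BMPR2 was at 13.03 and 11.54 TPM, a difference of -0.16. The activin receptors ACVR2A (2.22 and 2.26 TPM) and ACVR2B (5.41 and 5.51 TPM) each differed by 0.02. Predicted transcripts held 63.6% of the ACVR2B TPM with DMSO and 73.5% with CCA-1.1, and with curated transcripts only the difference of ACVR2B was -0.27 and that of ACVR2A 0.20. There was more TGFBR1 than TGFBR2 in both libraries, with a ratio of 1.85 in DMSO and 1.52 in CCA-1.1.

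Both co-receptors were lower by slightly more than the margin of 0.32. Endoglin (ENG), a co-receptor known from endothelial cells that also occurs in mesenchymal and glioma cells, was at 104.36 TPM with DMSO and 81.74 TPM with CCA-1.1, a difference of -0.35. The endothelial markers PECAM1 (3.41 and 2.71 TPM), CDH5 (0.4 and 0.33 TPM), VWF (0.12 and 0.19 TPM) and KDR (0.7 and 0.67 TPM) were far below it. Betaglycan (TGFBR3), which presents TGF-beta 2 to the receptors, was at 5.34 and 4.04 TPM, a difference of -0.33. Among genes with a mean between 1 and 5 TPM, where TGFBR3 falls, 10.2% had a lower difference.

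**Figure D1:**
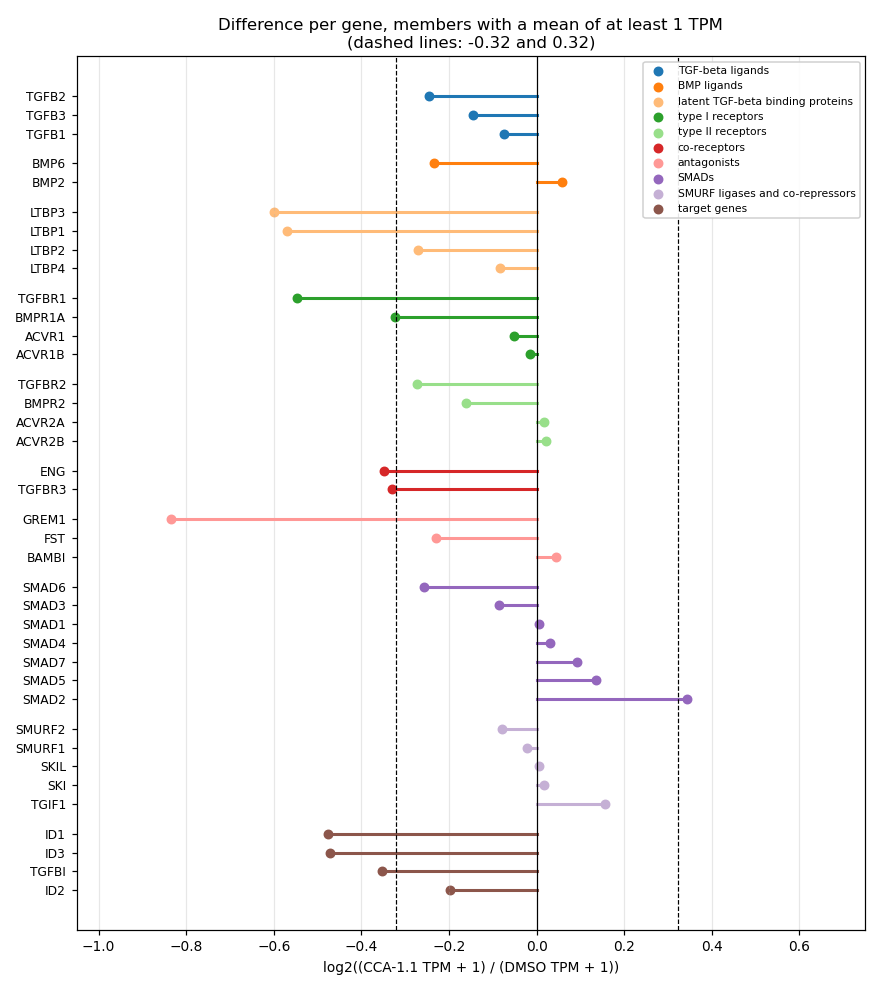
Difference of each of the 38 pathway genes averaging at least 1 TPM, on the log2 scale with 1 TPM added, coloured by role, with dashed lines at -0.32 and 0.32. GREM1 reaches -0.83, the LTBP, co-receptor and target genes all lie below 0, and SMAD2 is the one gene to the right of the upper line.

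The antagonist gremlin 1 (GREM1, chromosome 15, 32718004 to 32745106), which binds BMP2 and BMP4 and keeps them from their receptors, had the largest difference of the pathway. It was at 321.58 TPM with DMSO and 179.98 TPM with CCA-1.1, a difference of -0.83, which is 44.0% less TPM. Among genes with a mean of 100 TPM or more, 0.386% had a lower difference. GREM1 was 9.79 times as high as BMP2, BMP4 and BMP6 together in DMSO and 5.63 times as high in CCA-1.1. All of its transcripts averaging at least 1 TPM were lower: NM_001191323.2 was at 218.48 and 123.52 TPM, NM_001191322.2 at 95.18 and 51.61 TPM, and NM_013372.7 at 7.68 and 4.35 TPM. GREM1-AS1, an RNA gene that overlaps GREM1, was at 8.7 and 3.61 TPM. Whether the quantification used the strand of the reads is not given in the sources used here, so reads of these overlapping genes may not be fully separated.

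The other antagonists differed less. Follistatin (FST), which binds activins, was at 33.77 and 28.64 TPM, a difference of -0.23, while the activin subunit genes INHBA and INHBB were below 1 TPM. INHBE, an activin subunit gene from the list of further pathway genes described below, was at 3.66 and 3.63 TPM. BAMBI, a pseudoreceptor that lacks a kinase domain and is itself a target of the pathway, was at 24.63 and 25.43 TPM, a difference of 0.04. Noggin (NOG) was at 0.06 TPM with DMSO and listed at 0 with CCA-1.1, so no fold is given.

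The SMAD genes carry the signal from the receptors to the nucleus. Of 7 averaging at least 1 TPM, 5 were higher in CCA-1.1 and 2 were lower, with a median difference of 0.03. Of all genes averaging at least 1 TPM, 56.1% were higher. One of the 5 is SMAD1, whose difference lies near 0 and turned negative under median-ratio scaling and with curated transcripts only (-0.04). SMAD4, the common partner, was at 23.18 and 23.7 TPM, and SMAD3 was at 13.44 and 12.6 TPM. SMAD5, the BMP-regulated SMAD with the highest level, was at 44.8 and 49.3 TPM, a difference of 0.14, whereas SMAD1 was at 1.88 and 1.89 TPM and SMAD9 at 0.24 and 0.29 TPM. The inhibitory SMADs were low, with SMAD6 at 1.52 and 1.11 TPM, a difference of -0.26 (-0.42 with a pseudocount of 0.1 TPM and -0.36 with coding transcripts only), and SMAD7 at 4.19 and 4.53 TPM, a difference of 0.09.

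SMAD2 (chromosome 18, 47808957 to 47930872) was at 162.52 TPM with DMSO and 206.31 TPM with CCA-1.1, a difference of 0.34. Both this level and this difference came from predicted transcripts, whose RefSeq identifiers begin with XM. These held 96.5% of the SMAD2 TPM in DMSO and 97.2% in CCA-1.1. XM_047437508.1 was at 87.27 and 109.59 TPM and XM_017025749.2 at 63.21 and 83.53 TPM. The curated SMAD2 transcripts together were at 5.63 and 5.85 TPM, a difference of 0.05. The rank of SMAD2 as the most abundant SMAD therefore holds with the predicted transcripts included, and by curated transcripts alone SMAD2 was below SMAD3, SMAD4 and SMAD5.

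The ubiquitin ligases and co-repressors that limit SMAD signalling were nearly level. SMURF1, which marks BMP SMADs and receptors for degradation, was at 19.93 and 19.62 TPM, and SMURF2 was at 12.34 and 11.62 TPM. The co-repressors SKI (24.34 and 24.64 TPM) and SKIL (8.03 and 8.06 TPM) differed by 0.02 and by less than 0.01. TGIF1, a homeodomain repressor that binds SMAD2, was at 65.64 and 73.22 TPM, a difference of 0.16. In SKI, the level sum was made of transcripts that differed in opposite directions: the curated NM_003036.4 was at 10.52 and 15.62 TPM and the predicted XM_005244775.4 at 13.75 and 8.97 TPM.

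The ID genes and TGFBI were grouped as target genes, and the 4 of them that averaged at least 1 TPM were lower with CCA-1.1. BAMBI, SMAD7 and SKIL, which are feedback targets of the pathway too and are described by their roles above, were not lower, at 0.04, 0.09 and less than 0.01. SMAD6, another feedback target described above, was lower, at -0.26, with low levels of 1.52 and 1.11 TPM. The ID genes encode helix-loop-helix proteins without a DNA-binding region that hold back differentiation factors, and they are direct targets of BMP signalling. ID3 (chromosome 1, 23557926 to 23559501) was at 167.36 TPM with DMSO and 120.34 TPM with CCA-1.1, a difference of -0.47. ID1 (chromosome 20, 31605289 to 31606510) was at 105.9 and 75.87 TPM, a difference of -0.48. The TPM of ID1 was 28.4% lower and that of ID3 28.1% lower. ID2 was at 117.47 and 102.37 TPM, a difference of -0.20, so that ID1 was 0.90 times ID2 with DMSO and 0.74 times with CCA-1.1. ID4 was at 0.18 and 0.29 TPM. TGFBI, a secreted matrix protein named for its induction by TGF-beta, was the most abundant gene of the pathway at 1801.53 and 1411.4 TPM, a difference of -0.35.

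Over all genes, the differences between these libraries spread more widely at low levels. Of all genes between 1 and 5 TPM, the 5th and 95th percentiles of the difference were -0.60 and 0.88, and between 20 and 100 TPM they were -0.29 and 0.31. In this latter range, 5 of 15 pathway genes were lower by more than 0.32 (LTBP3, LTBP1, TGFBR1, ID1 and ENG), against 4.03% of all genes there. At 100 TPM or more, 3 of 7 were lower (GREM1, ID3 and TGFBI), against 4.82%. Between 5 and 20 TPM 1 of 9 was lower, against 6.73%, and between 1 and 5 TPM 1 of 7, against 10.6%.

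The 45 genes have 274 transcripts in the table, of which 96 were listed at 0 in both libraries and 87 had a mean of at least 1 TPM. Past 2-fold were 2 that were higher and 4 that were lower in CCA-1.1, or 2.30% and 4.60% of the 87. Among all transcripts averaging at least 1 TPM, 3.66% were higher and 3.38% were lower by that margin. The 6 transcripts belong to LTBP1, FST and ACVR1. In ACVR1, NM_001347665.1 reached 4.24 TPM with CCA-1.1 and was listed at 0 with DMSO, while the gene sum differed by -0.05. In FST, NM_006350.5 was at 2.53 and 0.21 TPM and XM_024454326.2 at 4.94 and 1.67 TPM, whereas the main transcript NM_013409.3 was at 22.61 and 20.15 TPM.

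LTBP1 has 65 transcripts in the table, and their values did not all go the same way. The main one, NM_000627.4, was at 26.92 TPM with DMSO and 15.37 TPM with CCA-1.1, a difference of -0.77. NM_001166264.2 was at 5.07 and 1.84 TPM, and NM_001394908.1 was at 3.76 TPM with DMSO and listed at 0 with CCA-1.1. NM_001394911.1 was at 0.33 and 2.38 TPM. Kallisto divides reads shared by the transcripts of a gene by estimation, so these values depend on each other. Because TPM corrects for transcript length, the gene sum can also shift with that division. In TGFBR1, the main transcript NM_004612.4 was at 42.26 and 27 TPM and NM_001306210.2 at 12.59 and 10.49 TPM. In LTBP3, both main transcripts were lower, NM_021070.4 at 54.71 and 35.72 TPM and NM_001130144.3 at 48.48 and 31.29 TPM.

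Other genes of the pathway were taken from a list of 49 further ligands, receptors, antagonists and adaptors and of 16 further target genes. Of the 49, 20 had a mean of at least 1 TPM, and 3 were lower and 1 was higher by more than 0.32, against 6.88% and 11.5% of all genes, with a median difference of -0.12. With a pseudocount of 5 TPM, the number lower in this list and the target list below together was 4, against 7 with 1 TPM. FURIN, the protease that cleaves the TGF-beta precursors, was at 149.22 TPM with DMSO and 104.57 TPM with CCA-1.1, a difference of -0.51. FSTL1, a secreted follistatin-like protein that can antagonise BMP4, was at 73.24 and 52.37 TPM, a difference of -0.48, and the ligand GDF5 was at 7.51 and 5.48 TPM, a difference of -0.39. GDF15, a divergent ligand of the superfamily that acts through the receptor GFRAL and is induced by cell stress, was the one that was higher, at 1110.67 and 1597.79 TPM, a difference of 0.52.

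Of the 16 further target genes, 13 had a mean of at least 1 TPM, and 4 were lower and 1 was higher by more than 0.32, against 6.88% and 11.5% of all genes. By direction alone, 7 of the 13 were lower and 6 were higher, with a median of -0.21. KLF10, an early TGF-beta response gene, was at 35.87 and 23.39 TPM, a difference of -0.60, and IL11 was at 35.05 and 25.93 TPM, a difference of -0.42. CCN2 (connective tissue growth factor) was at 142.07 and 112.88 TPM, a difference of -0.33. ATOH8, a BMP target, was at 3.29 and 2.19 TPM. HES1, which is also a Notch target, was at 6.86 and 9.01 TPM, a difference of 0.35. Fibronectin (FN1), the most abundant of these genes, was at 11240.6 and 9087.74 TPM, a difference of -0.31, whereas the cell cycle inhibitor CDKN1A was at 829.97 and 1008.95 TPM, a difference of 0.28. COL1A1 (15.86 and 19.79 TPM, a difference of 0.30), TAGLN (3.34 and 3.94 TPM, 0.19), TGFB1I1 (35.09 and 38.07 TPM, 0.11) and PMEPA1 (5.74 and 5.92 TPM, 0.04) were on the higher side as well. JUNB (175.95 and 146.87 TPM, -0.26) and SNAI2 (104.28 and 89.89 TPM, -0.21) were on the lower side. Many of these genes also respond to other pathways.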

How the data were processed

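RNA of U87 cells was sequenced after 72 h with DMSO or CCA-1.1, 1 library each. Per the submitters' processing notes, reads were checked with FastQC 0.11.9 and MultiQC 1.1. The authors then quantified transcripts by pseudo-alignment (Kallisto; human transcripts, GRCh38.p14). The deposited values are TPM per RefSeq transcript; the columns sum to 999999 and 1000000, so read depth is unknown and the precision of a value cannot be given.

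Of 177816 transcripts, 169966 were assigned to a gene symbol by a table of RefSeq genes (GRCh38.p14) with identifier versions ignored. Unassigned ones held 0.941% of the TPM in DMSO and 0.967% in CCA-1.1. TPM was summed per gene. Differences are log2 ratios with a pseudocount of 1 TPM, and counts and medians use genes averaging at least 1 TPM over both libraries. Since each condition had 1 library, no test was run, although the authors used edgeR; such a test would compare the libraries and not the conditions.

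The pathway genes and lists were chosen with earlier results of these data known. All 45 members are named. Of the further genes, those with a mean of at least 5 TPM and a difference beyond 0.32 and the 3 highest are named. Besides these, INHBE, ATOH8, COL1A1, TAGLN, TGFB1I1, PMEPA1, JUNB and SNAI2 were named after their values were seen. Of transcripts, the main ones of the genes described in detail and all those past 2-fold are named. The calculation was tested on simulated data with large changes in well expressed genes, by the 2-fold margin alone. The margin of 0.32 was not simulated. Alternatives were pseudocounts of 0.1 and 5 TPM, median-ratio scaling, curated or coding transcripts only, versioned identifiers, a minimum mean of 10 TPM, no minimum, and a protein-coding background. Some items of the lists are not reported here. Python 3.11.15, numpy 2.4.6, pandas 2.3.3 and matplotlib 3.10.9 were used.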

Additional observations from a re-analysis of the deposited data

How the results depend on the processing

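No paired analysis was possible because each condition had a single library, and for the same reason no library could be left out. The number of pathway genes past 2-fold was 0 under every alternative tried. The number lower by more than 0.32 ran from 8 (pseudocount of 5 TPM, or a minimum mean of 10 TPM) to 12 (pseudocount of 0.1 TPM), and the median from -0.14 with curated transcripts only to -0.08 with a pseudocount of 5 TPM. None of the 11 genes beyond 0.32 changed direction. With curated transcripts only, SMAD2 was at 0.05, SKI at 0.53, ACVR2B at -0.27, ACVR2A at 0.20, SMAD6 at -0.38 and TGFBR3 at -0.46. With a pseudocount of 5 TPM, BMPR1A was at -0.22 and TGFBR3 at -0.19, within that margin. Further genes that passed the margin under an alternative were TGFBR2 with versioned identifiers (-0.33), SMAD6 with a pseudocount of 0.1 TPM (-0.42) or coding transcripts only (-0.36), and LTBP2 with a pseudocount of 0.1 TPM (-0.39). Of the 38 genes, 2 near 0 (SMAD1 and SKIL) changed sign under median-ratio scaling (factor 1.01), and 4 (these, ACVR1B and ACVR2B) did so with curated transcripts. For the further genes, 1 was higher and 4 were lower by more than 0.32 with a pseudocount of 5 TPM, against 2 and 7; 1 was higher with a minimum mean of 10 TPM; and their median was 0 without a minimum, where unexpressed genes enter it. The lack of read counts limits all values near 0.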
